A study of Homo sapiens with 4 samples.

Results

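The genes described here are NFE2L2, which encodes the transcription factor NRF2, its inhibitor KEAP1, and 8 antioxidant genes: GCLC, GCLM, NQO1, TXNRD1, TXN, SRXN1, GSR and GPX4. They were taken by gene symbol, and all 10 were among the 27452 genes of the table and passed the low-count filter. RNA sequencing compared cells labelled HepG2, an established human hepatoma line, in which a short hairpin RNA targeted STAT3 (STAT3 shRNA, 2 libraries) with cells that carried a control hairpin (Ctrl shRNA, 2 libraries), to learn how lowering STAT3 changes other genes. The cells were kept in DMEM with fetal bovine serum and antibiotics in both groups. The labels do not say whether the libraries of a group share a hairpin or a culture, so the p-values cover only how far these libraries differ, and that spread may be technical.

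NRF2 is held in the cytoplasm by KEAP1, an adaptor that brings it to a CUL3 ubiquitin ligase for destruction. Oxidants and electrophiles modify KEAP1, and NRF2 then enters the nucleus, pairs with small MAF proteins and binds antioxidant response elements in the genes of glutathione, thioredoxin and quinone metabolism. This control acts on protein stability, which RNA counts do not measure.

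STAT3 was lower in both STAT3 shRNA libraries, at 34.7 and 36.1 CPM (TMM-scaled CPM, read counts relative to library size) against 245 and 244 CPM in the Ctrl shRNA libraries, with a log2 fold change of -2.79 ± 0.09 (SE). Library totals were 25862027 and 17694642 reads with STAT3 shRNA and 19283150 and 20133064 with Ctrl shRNA, so 3 reads stood for 0.116 to 0.170 CPM before TMM scaling. The 10 genes together took 0.266% and 0.275% of reads in the STAT3 shRNA libraries and 0.276% and 0.256% in the Ctrl shRNA libraries. Markers of the labelled cell type were mostly missing. Of 11 hepatocyte markers looked up by symbol 5 were listed, and the other 6 had no entry among the genes of the table. Albumin (ALB) had 0 and 3 reads in the STAT3 shRNA libraries and 0 reads in each Ctrl shRNA library, and apolipoprotein A1 (APOA1) had 1 and 2 reads against 0 and 0. Fetuin A (AHSG) had 11 and 5 reads with STAT3 shRNA and 0 reads in each Ctrl shRNA library. The 5 summed to 8.55 and 5.92 CPM with STAT3 shRNA and 3.29 and 3.92 CPM with Ctrl shRNA, most of it from HNF4A and TF. These went opposite ways. HNF4A was at 7.20 and 4.95 CPM with STAT3 shRNA and 1.27 and 1.78 CPM with Ctrl shRNA. TF was at 0.900 and 0.435 CPM with STAT3 shRNA and 2.01 and 2.14 CPM with Ctrl shRNA. The 5 bile duct markers summed to 900.4 and 871 CPM with STAT3 shRNA and 1165 and 1288 CPM with Ctrl shRNA, of which the keratin KRT7 held 726 and 702 CPM and 1066 and 1166 CPM. Other bile duct markers went the other way: KRT19 was at 164 and 158 CPM with STAT3 shRNA and 95.7 and 119 CPM with Ctrl shRNA, and EPCAM at 10.4 and 9.78 CPM and 2.76 and 2.88 CPM. SOX9 and CFTR, the remaining bile duct markers, reached no more than 0.489 and 0.450 CPM in any library. Summed markers ran from 24.5 to 28.2 CPM with STAT3 shRNA and 11.2 to 14.8 CPM with Ctrl shRNA for 4 immune genes, nearly all of it CD68, from 1.28 to 1.74 and 1.2 to 1.75 CPM for 3 endothelial genes, and from 35.3 to 35.4 and 52.8 to 60.6 CPM for 5 fibroblast or stellate genes. Of these COL1A1 was at 15.0 and 14.3 CPM with STAT3 shRNA and 38.1 and 43.2 CPM with Ctrl shRNA, while DCN was at 14.6 and 15.3 CPM and 10.4 and 11.3 CPM. The data thus go against the hepatocyte character of the label, and the cells are called by their labels only. In bulk RNA, fewer cells of a type and less RNA per cell cannot be told apart. The part of these markers in the results below was not tested.

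Among the 10 genes GCLM rose with STAT3 shRNA, KEAP1, NQO1 and SRXN1 fell by smaller amounts, and 6 did not pass the test. Those counts come from edgeR's quasi-likelihood test on counts, with Benjamini-Hochberg adjustment over 15199 genes and a threshold of 0.05. Over all tested genes 35.5% passed, 16.8% higher and 18.7% lower, so 4 of 10 is near the share of all genes. The median log2 fold change of the 10 was -0.14, beside 0.022 for all tested genes. Groups did not overlap in 7 of the 10, while 70.8% of all tested genes had groups without overlap.

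**Figure D1:**
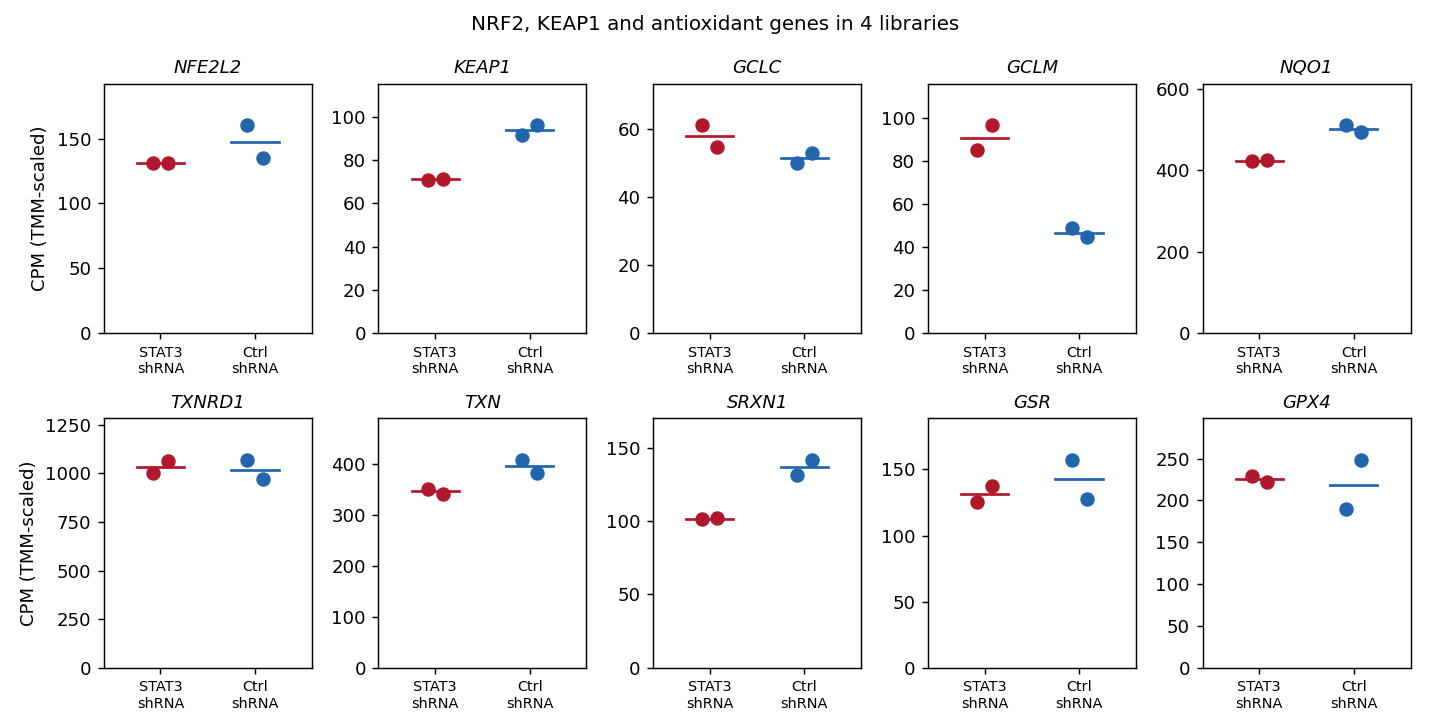
TMM-scaled CPM (y axis, from 0) of the 10 genes in each library; points are libraries, short lines are means of the 2 libraries of a group, STAT3 shRNA in red and Ctrl shRNA in blue. GCLM is at 84.9 and 96.6 CPM with STAT3 shRNA against 48.8 and 44.6 CPM with Ctrl shRNA, while TXNRD1, GSR and GPX4 overlap between groups.

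Of the regulators, KEAP1 fell and NFE2L2 did not pass the test. NFE2L2 (ENSG00000116044.16; GENCODE 29, GRCh38, chromosome 2, 177227595 to 177392697, minus strand) had 131.3 and 131.1 CPM in the STAT3 shRNA libraries and 160.4 and 135 CPM in the Ctrl shRNA libraries. Both STAT3 shRNA values lay below the lower Ctrl shRNA value, by a margin far smaller than the distance between the Ctrl shRNA libraries. The difference on the log2 scale was -0.17 ± 0.10 (SE; 95% interval -0.39 to 0.052), with an adjusted p of 0.208 in the edgeR test. Without Ctrl shRNA replicate 2 it was -0.29, and without Ctrl shRNA replicate 1 it was -0.074. With an offset for transcript GC content it was -0.26 (edgeR, adjusted p = 0.0336). NFE2L2 shares its annotated span with AGPS on the opposite strand, which held 95.9% as many reads, and with an antisense RNA at 12.7%; whether counting used strand is not given in the sources used here.

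KEAP1 (ENSG00000079999.14; chromosome 19, 10486120 to 10503741, minus strand), the adaptor that marks NRF2 for destruction, had 70.9 and 71.1 CPM with STAT3 shRNA and 91.6 and 96.1 CPM with Ctrl shRNA. The groups were well apart and each pair lay close together. It fell by 0.40 on the log2 scale (SE 0.08), 1.32-fold, with an adjusted p of 0.0061 in the edgeR test. The call was lost without STAT3 shRNA replicate 1 (log2 fold change -0.40, adjusted p = 0.0950) or replicate 2 (-0.40, 0.0892), with the GC offset (-0.16, 0.0963) and with log2(FPKM + 1) in limma (-0.31, 0.0622). The ratio of NFE2L2 to KEAP1 counts was 1.85 and 1.84 in the STAT3 shRNA libraries and 1.75 and 1.40 in the Ctrl shRNA libraries. The ratio is given as a description and was not tested.

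Glutamate-cysteine ligase, the rate-limiting enzyme of glutathione synthesis, is a dimer of the catalytic subunit GCLC and the modifier subunit GCLM. GCLM (ENSG00000023909.10; chromosome 1, 93885205 to 93909456, minus strand) had 84.9 and 96.6 CPM with STAT3 shRNA and 48.8 and 44.6 CPM with Ctrl shRNA. The lower STAT3 shRNA library was still well above the higher Ctrl shRNA library. GCLM rose 1.94-fold, by 0.96 ± 0.10 on the log2 scale (SE; 95% interval 0.73 to 1.18), with an adjusted p of 0.000238 in the edgeR test, and its size exceeded that of 87.3% of all tested genes. GCLM passed under all 16 alternatives computed for it, with log2 fold changes of 0.77 to 1.2.

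GCLC (ENSG00000001084.12; chromosome 6, 53497341 to 53616970, minus strand) had 61.2 and 54.8 CPM with STAT3 shRNA and 50.2 and 53.0 CPM with Ctrl shRNA. Both STAT3 shRNA values were the higher ones, but the STAT3 shRNA pair lay further apart than the nearest values of the groups. Its log2 fold change of 0.17 ± 0.10 (SE; 95% interval -0.047 to 0.39) did not pass (adjusted p = 0.200, edgeR). Per length, in the FPKM of the authors, GCLM stood at 1.56 and 1.95 times GCLC in the STAT3 shRNA libraries and at 0.889 and 0.848 times GCLC in the Ctrl shRNA libraries. In these FPKM the modifier subunit's RNA was thus above that of the catalytic subunit in both STAT3 shRNA libraries and below it in both Ctrl shRNA libraries. The lengths implied by count and FPKM were not fixed. They were 2398 bases for GCLC and 2624 for GCLM in Ctrl shRNA replicate 1, and 2834 and 2521 in STAT3 shRNA replicate 1. The order of the subunits in Ctrl shRNA replicate 1 therefore depends on the lengths used. In counts the ratios were 1.39 and 1.76 with STAT3 shRNA and 0.973 and 0.841 with Ctrl shRNA.

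The promoters of GCLM and KEAP1 are shown because these genes moved in opposite directions and both windows hold the core of the antioxidant response element. They are the 250 bases before a RefSeq start of each gene (GRCh38.p14), 5′ to 3′ on the gene's strand. They cover chr1:93909431-93909680 (minus) for GCLM and chr19:10502772-10503021 (minus) for KEAP1. The KEAP1 window lies wholly inside the GENCODE 29 span given above, and the GCLM window overlaps the first bases of its span. For KEAP1 another RefSeq start is listed further upstream, without a match. Capitals mark matches to TGACNNNGC, the element's core, or to TTCNNNGAA, the letters of a STAT site, on either strand.
GCLM: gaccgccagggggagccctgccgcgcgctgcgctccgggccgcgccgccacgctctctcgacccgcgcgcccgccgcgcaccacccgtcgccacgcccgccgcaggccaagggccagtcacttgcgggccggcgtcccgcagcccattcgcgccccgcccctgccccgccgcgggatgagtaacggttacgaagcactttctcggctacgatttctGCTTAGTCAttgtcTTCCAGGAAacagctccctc
KEAP1: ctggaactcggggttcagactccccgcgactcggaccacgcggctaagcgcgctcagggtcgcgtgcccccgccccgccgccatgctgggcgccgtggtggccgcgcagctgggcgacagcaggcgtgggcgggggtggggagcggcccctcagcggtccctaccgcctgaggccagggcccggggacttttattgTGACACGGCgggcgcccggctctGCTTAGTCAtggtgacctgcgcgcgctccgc
In GCLM the core match reads TGACTAAGC on the strand opposite to the gene and begins 34 bases before the RefSeq start. A STAT-type match, TTCCAGGAA, follows after 5 bases and does not overlap it. In KEAP1 the same letters TGACTAAGC stand on the opposite strand 31 bases before this RefSeq start, and TGACACGGC stands on the gene's strand 54 bases before it. Searched over 300 bases (250 before and 50 after the start), TGACNNNGC was in 4 of 14 promoters listed for 9 of the 10 genes, namely GCLM, KEAP1 and both promoters of TXNRD1, and in 13.3% of 35116 promoters of all genes. TTCNNNGAA was in 1 of the 14, that of GCLM, and in 7.66% of all promoters. A match of letters is not evidence of binding.

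Glutathione reductase (GSR, ENSG00000104687.14; chromosome 8, 30678061 to 30727999, minus strand) returns oxidised glutathione to its reduced form. It had 125 and 137 CPM with STAT3 shRNA and 157 and 128 CPM with Ctrl shRNA, so the groups overlapped. The difference on the log2 scale was -0.12 ± 0.11 (SE; 95% interval -0.37 to 0.13; adjusted p = 0.440, edgeR). Without Ctrl shRNA replicate 1 it turned to 0.0049, without Ctrl shRNA replicate 2 it was -0.27, and in log2(FPKM + 1) it was 0.096.

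GPX4 (ENSG00000167468.16; chromosome 19, 1103926 to 1106791, plus strand), the selenoprotein that reduces lipid peroxides and restrains ferroptosis, had 229 and 222 CPM with STAT3 shRNA and 189 and 248 CPM with Ctrl shRNA. The STAT3 shRNA values lay between the Ctrl shRNA values. The difference on the log2 scale was 0.045 ± 0.12 (SE; 95% interval -0.23 to 0.32; adjusted p = 0.799, edgeR). The direction hung on the Ctrl shRNA library kept: -0.17 without replicate 1 and 0.25 without replicate 2, both in edgeR. Each of these fits left 1 Ctrl shRNA library, so its spread came from the STAT3 shRNA pair alone. At 62.5% GPX4 had the highest transcript GC content of the 10, and with the GC offset its log2 fold change was 0.35 (adjusted p = 0.0131, edgeR).

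Thioredoxin (TXN, ENSG00000136810.13; chromosome 9, 110243811 to 110256640, minus strand) reduces protein disulfides. It had 351 and 341 CPM with STAT3 shRNA and 408 and 383 CPM with Ctrl shRNA, without overlap. The log2 fold change of -0.19 ± 0.08 (SE; 95% interval -0.37 to -0.011) had an adjusted p of 0.0925 in the edgeR test. TXN passed under 5 of the 16 alternatives computed for it. These included the GC offset (-0.34, adjusted p = 0.00472, edgeR) and DESeq2 (-0.22, 0.0482). It did not pass with the replicate block (-0.19, adjusted p = 0.117, edgeR) or in log2(FPKM + 1) with limma (-0.20, 0.239). Dropping 1 library at a time gave TXN log2 fold changes from -0.24 to -0.17.

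Thioredoxin reductase 1 (TXNRD1, ENSG00000198431.16; chromosome 12, 104215779 to 104350305, plus strand), the selenoprotein that recharges thioredoxin with NADPH, had the most reads of the 10. Its values were 1004 and 1063 CPM with STAT3 shRNA and 1069 and 969 CPM with Ctrl shRNA, and both STAT3 shRNA values lay between the Ctrl shRNA values. The difference on the log2 scale was 0.020 ± 0.083 (SE; 95% interval -0.17 to 0.21; adjusted p = 0.869, edgeR). It turned negative when Ctrl shRNA replicate 2 (-0.054) or, in turn, STAT3 shRNA replicate 2 (-0.022) was left out, with the GC offset (-0.088) and in DESeq2 (-0.0029).

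Sulfiredoxin (SRXN1, ENSG00000271303.1; chromosome 20, 646615 to 653370, minus strand) repairs over-oxidised peroxiredoxins. It had 101 and 102 CPM with STAT3 shRNA and 132 and 142 CPM with Ctrl shRNA. Every STAT3 shRNA value was far below every Ctrl shRNA value. SRXN1 fell by 0.43 on the log2 scale (SE 0.08; 95% interval -0.62 to -0.24), 1.35-fold, with an adjusted p of 0.00459 in the edgeR test. The call was lost without STAT3 shRNA replicate 1 (log2 fold change -0.42, adjusted p = 0.0771) or replicate 2 (-0.43, 0.0670), and in log2(FPKM + 1) with limma (-0.34, 0.0520). AL121758.1, a near-identical gene that overlaps it on the same strand, held 0.174% as many reads.

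NQO1 (ENSG00000181019.13; chromosome 16, 69706996 to 69726951, minus strand), a quinone reductase widely used as a readout of NRF2, had 423 and 426 CPM with STAT3 shRNA and 511 and 494 CPM with Ctrl shRNA. The groups were apart and each pair lay close together. NQO1 fell by 0.24 on the log2 scale (SE 0.08; 95% interval -0.42 to -0.071), 1.18-fold, with an adjusted p of 0.0357 in the edgeR test. The call was lost without STAT3 shRNA replicate 1 (log2 fold change -0.24, adjusted p = 0.30) or replicate 2 (-0.25, 0.277), with upper-quartile scaling (-0.20, 0.0723) and in log2(FPKM + 1) with limma (-0.25, 0.128).

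**Figure D2:**
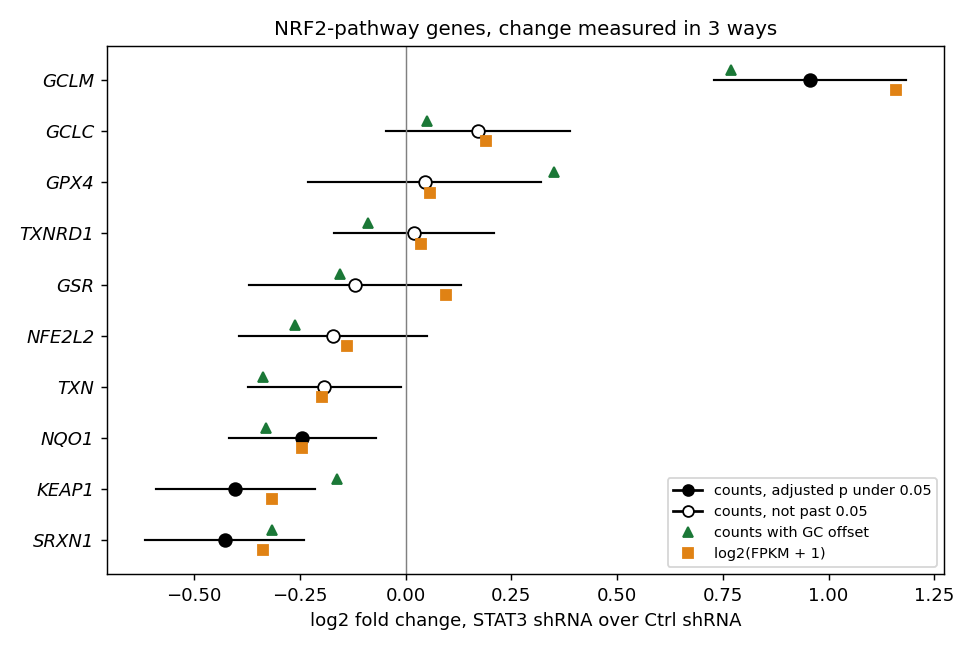
Log2 fold change (x axis, STAT3 shRNA over Ctrl shRNA) of the 10 genes in the edgeR fit of counts, with lines for the 95% interval and filled circles for an adjusted p under 0.05, in the same fit with a GC offset, and in log2(FPKM + 1). GCLM stands apart at 0.96, 0.77 and 1.16, and the offset moves GPX4 to 0.35 and KEAP1 to -0.16.

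The Ctrl shRNA libraries were the wider pair. The distance between the libraries of a group was larger in Ctrl shRNA than in STAT3 shRNA for 8 of the 10 genes, with a median of 0.044 on the log2 scale in STAT3 shRNA and 0.12 in Ctrl shRNA. In 4 of the 10 the Ctrl shRNA libraries lay further apart than the groups did, GPX4 by 0.39, GSR by -0.30, NFE2L2 by -0.25 and TXNRD1 by -0.14 (replicate 2 over replicate 1). Across genes, the difference between the Ctrl shRNA libraries rose with transcript GC content (Spearman rho 0.446 over 14545 genes, given as a description, since genes share libraries), and the log2 fold change fell with it (rho -0.339). The part of GC content in the values of single genes was not tested beyond the offset.

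Per length, TXN was the most abundant of the 10, at 716 and 722 FPKM with STAT3 shRNA and 827 and 823 FPKM with Ctrl shRNA. NQO1 followed at 431 ± 6.55 FPKM with STAT3 shRNA and 511 ± 6.48 FPKM with Ctrl shRNA (SD, n = 2 each), then GPX4 at 421 ± 0.495 and 409.6 ± 95.01 FPKM and TXNRD1 at 356 ± 19.8 and 347 ± 4.02 FPKM. Each of these 4 antioxidant genes stood above at least 97.7% of all tested genes in either group. NFE2L2 was at 64.0 ± 1.29 FPKM with STAT3 shRNA and 70.8 ± 6.59 FPKM with Ctrl shRNA, above KEAP1 at 33.3 ± 0.849 and 41.6 ± 0.955 FPKM. GSR had 54.7 ± 3.06 FPKM with STAT3 shRNA and 51.4 ± 7.68 FPKM with Ctrl shRNA, and SRXN1 had 42.8 ± 0.714 and 54.3 ± 2.34 FPKM. GCLM was at 34.7 and 41.3 FPKM with STAT3 shRNA and 18.2 and 14.8 FPKM with Ctrl shRNA, and GCLC at 22.3 and 21.1 FPKM against 20.5 and 17.5 FPKM. GCLM ranked 8 of 10 with STAT3 shRNA and 10 of 10 with Ctrl shRNA. With Ctrl shRNA the values of GPX4 and TXNRD1, of SRXN1 and GSR, and of GCLC and GCLM overlapped between neighbours in that order; with STAT3 shRNA no neighbours overlapped. The transcript length implied by count and FPKM differed up to 1.2-fold between libraries for GCLC and 1.18-fold for GCLM, so FPKM and counts are not the same measure.

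The fold changes of neighbouring genes on the chromosome were set beside that of each gene. Around NFE2L2 the median log2 fold change of 50 tested neighbours (25 on each side, GENCODE 29) was -0.39, with 1 higher and 24 lower, beside -0.17 for NFE2L2 and -0.048 for all tested genes of chromosome 2. GPX4 lay in a similar setting on chromosome 19, with a neighbour median of -0.39, 1 higher and 24 lower, beside its own 0.045. GCLM had neighbours with a median of 0.39, 20 of 50 higher and 2 lower, and its own 0.96 was above 40 of the 50. GCLC, at 0.17, was close to its neighbours' median, also 0.17 when rounded.

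SRXN1, near the end of chromosome 20, was at -0.43 beside a median of -0.081 for 34 neighbours, and 6 of these had a lower log2 fold change. KEAP1 was at -0.40 beside -0.22, NQO1 at -0.24 beside -0.18, TXN at -0.19 beside 0.19, GSR at -0.12 beside 0.20 and TXNRD1 at 0.020 beside 0.23. The medians moved with the number of neighbours taken. With 10 and with 50 on each side they were -0.36 and -0.048 around KEAP1, 0.025 and -0.099 around NQO1, 0.42 and 0.23 around GCLM, and 0.35 and 0.14 around TXN. The part of chromosomal position in these values was not tested.

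**Figure D3:**
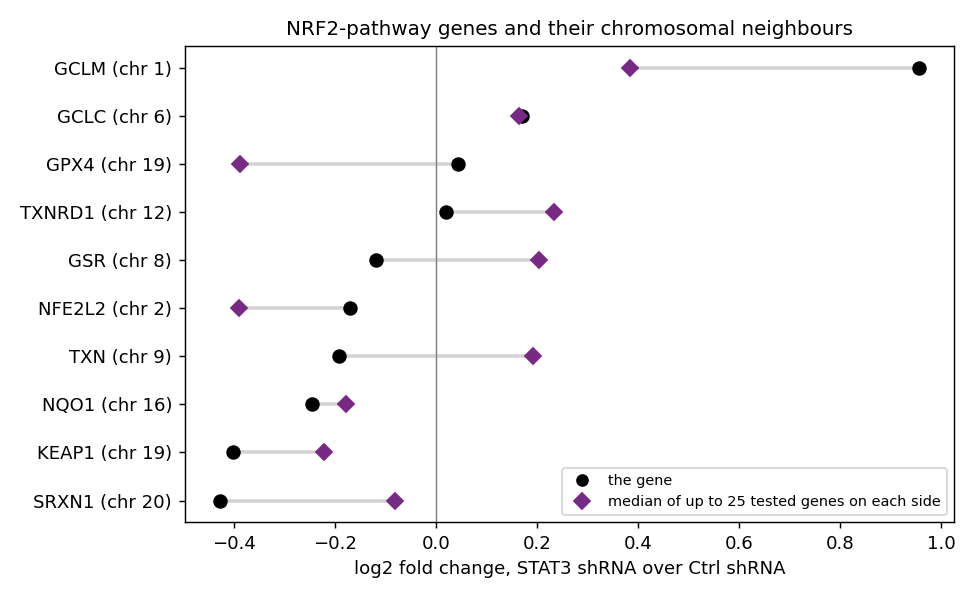
Log2 fold change (x axis, STAT3 shRNA over Ctrl shRNA) of each of the 10 genes (black) and the median of up to 25 tested genes on each side along its chromosome (purple). GCLM, GPX4 and NFE2L2 lie above their neighbours' medians of 0.39, -0.39 and -0.39, and TXN, SRXN1 and GSR below theirs.

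Of 21 tested partners and regulators of NRF2, 2 rose, 2 fell and 17 did not pass. The share past the threshold was 19.0%, beside 35.5% of all tested genes. Their median log2 fold change was -0.050, and with upper-quartile scaling 5 rose and 2 fell. With the GC offset the median was 0.072, and 2 rose and 3 fell. MAFK, a small MAF partner of NRF2, fell by 1.22 on the log2 scale (SE 0.12), to 26.5 and 32.9 CPM with STAT3 shRNA against 66.3 and 71.9 CPM with Ctrl shRNA, with an adjusted p of 0.000164 in the edgeR test. MAFK overlaps TMEM184A on the opposite strand, which held 78.6% as many reads. PGAM5, a mitochondrial phosphatase that binds KEAP1, fell to 78.3 and 77.9 CPM with STAT3 shRNA, against 121 and 101 CPM with Ctrl shRNA (adjusted p = 0.00549, edgeR), with a log2 fold change of -0.51, a call lost in log2(FPKM + 1) (-0.13, adjusted p = 0.472, limma). SQSTM1, the autophagy receptor p62 that can titrate KEAP1, rose to 924 and 935 CPM with STAT3 shRNA, against 746 and 726 CPM with Ctrl shRNA (log2 fold change 0.34, adjusted p = 0.00869, edgeR). The call was lost, with log2 fold changes of about the same size, without STAT3 shRNA replicate 1 (0.35, adjusted p = 0.109, edgeR), without STAT3 shRNA replicate 2 (0.33, 0.129) and in log2(FPKM + 1) with limma (0.36, 0.0695), and MGAT4B on the opposite strand held 23.1% as many reads. CUL3, the ligase scaffold used by KEAP1, stood at a log2 fold change of -0.050 and BACH1, a repressor that competes with NRF2, 0.19, and neither passed (adjusted p = 0.717 and 0.145, edgeR); both were chosen after their values were seen.

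Other NRF2 target genes moved both ways. Of 37 tested, 9 rose, 13 fell and 15 did not pass. The share past the threshold was 59.5%, beside 35.5% of all tested genes. Their median log2 fold change was -0.060. With reads summed over near-identical copies 8 rose and 11 fell. FTH1, the ferritin heavy chain that stores iron, rose to 6617 and 7046 CPM with STAT3 shRNA, against 3407 and 3533 CPM with Ctrl shRNA (1.97-fold, adjusted p = 4.34e-05, edgeR), and in log2(FPKM + 1) the log2 fold change was 0.88, against 0.98 in counts, with an adjusted p of 0.0919 in limma. AKR1C1, an aldo-keto reductase, fell 19.2-fold when counted alone, to 1.05 and 1.96 CPM with STAT3 shRNA against 25.8 and 29.9 CPM with Ctrl shRNA (adjusted p = 1.19e-05, edgeR). Summed with its near-identical relative AKR1C2, the log2 fold change came to -0.055 (adjusted p = 0.680, edgeR), so the fall of AKR1C1 is uncertain. AKR1C2 counted alone rose 1.88-fold (adjusted p = 0.000246, edgeR), a rise with the same limit. HMOX1, heme oxygenase 1 and a common NRF2 readout, had 29.6 and 28.4 CPM with STAT3 shRNA and 25.2 and 32.4 CPM with Ctrl shRNA (log2 fold change 0.011, adjusted p = 0.956, edgeR), and it was chosen after its values were seen.

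Outside the 10 genes, those of glutathione synthesis and use fell more often than they rose. This list leaves out GCLM, which rose, and GCLC, GSR and GPX4. SLC7A11 and the glutathione transferases were counted among the other NRF2 target genes. Of 19 tested, 1 rose, 8 fell and 10 did not pass. The shares were 5.26% higher and 42.1% lower, beside 16.8% and 18.7% of all tested genes. Their median log2 fold change was -0.28, beside 0.022 for all tested genes. With upper-quartile scaling 1 rose and 6 fell, and in log2(FPKM + 1) with limma 0 rose and 5 fell. With the GC offset the median was -0.17, and 0 rose and 7 fell. GGT5, a gamma-glutamyl transferase relative, fell to 2.40 and 2.01 CPM with STAT3 shRNA, against 10.1 and 9.93 CPM with Ctrl shRNA (log2 fold change -2.17, adjusted p = 0.000142, edgeR), and on log2(FPKM + 1) the difference was -1.01. SLC3A2, the heavy chain of the cystine transporter, fell to 363 and 379 CPM with STAT3 shRNA, against 589 and 610.2 CPM with Ctrl shRNA (1.62-fold, adjusted p = 0.000341, edgeR). Its light chain SLC7A11, chosen after its values were seen, rose to 90.4 and 98.1 CPM with STAT3 shRNA, against 68.1 and 52.6 CPM with Ctrl shRNA (1.56-fold, adjusted p = 0.00436, edgeR). GLRX5, a mitochondrial glutaredoxin of iron-sulfur cluster assembly, fell 1.58-fold (adjusted p = 0.000859, edgeR), with the antisense RNA SNHG10 at 18.7% as many reads.

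Among other thioredoxins, peroxiredoxins and their relatives, 5 of 23 rose, 8 fell and 10 did not pass. The share past the threshold was 56.5%, beside 35.5% of all tested genes. With upper-quartile scaling 5 rose and 4 fell. The median log2 fold change was -0.23, and it was -0.13 with the GC offset and 0.0083 in log2(FPKM + 1). PRDX5, a peroxiredoxin, fell to 131 and 124 CPM with STAT3 shRNA, against 222 and 305 CPM with Ctrl shRNA (2.06-fold, adjusted p = 0.000696, edgeR). NXN, nucleoredoxin, rose 1.74-fold (adjusted p = 0.000274), and MSRB3, a methionine sulfoxide reductase, rose 1.78-fold (adjusted p = 0.000391), both in edgeR.

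Of 19 genes of superoxide removal, catalase and NADPH supply, 4 rose, 6 fell and 9 did not pass. The share past the threshold was 52.6%, beside 35.5% of all tested genes. Their median log2 fold change was -0.023, which was 0.024 with upper-quartile scaling. IDH1, cytosolic isocitrate dehydrogenase, fell to 113 and 115 CPM with STAT3 shRNA, against 269 and 258 CPM with Ctrl shRNA (2.31-fold, adjusted p = 2.46e-05, edgeR). PGD, a pentose phosphate pathway enzyme that makes NADPH, fell to 215 and 214 CPM with STAT3 shRNA, against 334 and 355 CPM with Ctrl shRNA (1.61-fold, adjusted p = 0.000394, edgeR).

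Selenoproteins, the class to which GPX4 and TXNRD1 belong, and the factors of selenocysteine insertion had 5 of 23 higher and 7 lower. Of the 23, 11 were not past the threshold, and the median log2 fold change was -0.065. The share past the threshold was 52.2%, beside 35.5% of all tested genes. SELENOT, an endoplasmic reticulum selenoprotein, fell 2.96-fold (adjusted p = 1.66e-05, edgeR), but SERP1 overlaps it on the opposite strand with 374% as many reads. SELENOP, the secreted selenium carrier, fell to 2.40 and 3.10 CPM with STAT3 shRNA, against 13.7 and 17.6 CPM with Ctrl shRNA (log2 fold change -2.52, adjusted p = 8.22e-05, edgeR), and on log2(FPKM + 1) the difference was -1.81. SCLY, which frees selenium from selenocysteine, fell 1.97-fold (adjusted p = 0.000236, edgeR). Of 31 ferroptosis genes 7 rose, 13 fell and 11 did not pass, with a median of -0.094. Of these 31, 64.5% passed, beside 35.5% of all tested genes. The 31 included FTH1 and SLC3A2 above, and POR, the cytochrome P450 reductase. POR fell 1.74-fold (adjusted p = 0.000265, edgeR) and overlaps TMEM120A, at 23.4% as many reads.

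Over all 162 tested genes of these lists, 18.5% rose and 32.1% fell, beside 16.8% and 18.7% of all tested genes. The share of all genes moved with the low-count filter. With 5 CPM in 2 libraries, 43.5% of 11280 genes passed in either direction. The part of expression level in the shares of the lists was not tested. The lists share genes, and no test of a list was made. Without STAT3 shRNA replicate 1 the calls were 12 higher and 27 lower, and without STAT3 shRNA replicate 2 they were 12 and 29, against 30 and 52 with all libraries.

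**Figure D4:**
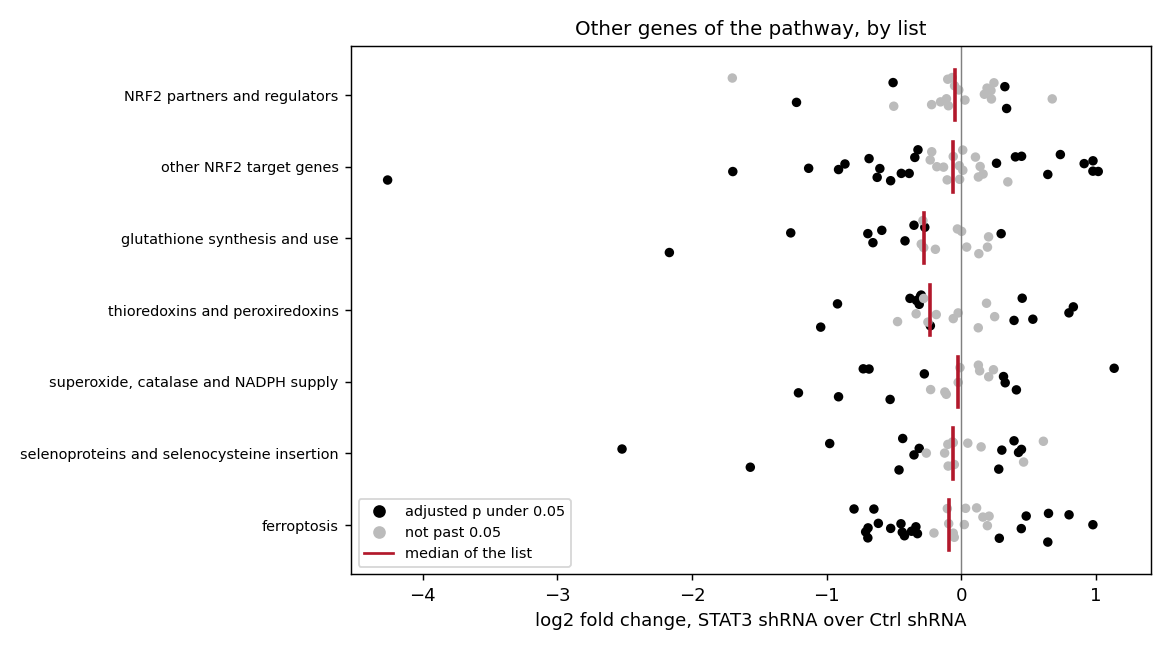
Log2 fold change (x axis, STAT3 shRNA over Ctrl shRNA) of each tested gene (points) in the 7 lists, with the median of each list. Medians lie between -0.28 for glutathione synthesis and use and -0.023 for superoxide removal, catalase and NADPH supply, and points reach both directions in every list.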

How the data were processed

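RNA of cells labelled HepG2 was sequenced in 4 libraries, 2 per group. The authors deposited unnormalized counts of reads for each gene and, in a separate table, FPKM, both per the file headers. The sources used here do not name the aligner, the counting tool, the build, the annotation or the use of strand. Groups and replicate numbers came from the sample titles. The Ctrl columns carry that name, while the others carry "Si", which was read as STAT3 shRNA.

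The counts went into edgeR 4.0.16 under R 4.3.3 with TMM factors, filterByExpr and a model of group alone. A two-sided quasi-likelihood test followed (glmQLFit, glmQLFTest), adjusted by Benjamini-Hochberg over 15199 genes with a threshold of 0.05. Errors of log2 fold changes are SEs, and intervals are 95%. The common dispersion was 0.00967. The scaling was replaced by RLE or upper-quartile factors, and the filter was dropped or set to 5 CPM in 2 libraries. A replicate block and a GC offset (lowess, span 0.3) were added, alone and together. Each library was left out in turn, and a threshold of 0.01 was tried. Other tools were DESeq2 1.42.0, the exact test of edgeR, and limma 3.58.1 on log2(FPKM + 1) and log2(FPKM + 0.1). Chosen after seeing the data was a sum of reads over near-identical copies, found with blastn 2.17.0 at 95% identity or more across 50% or more of a gene's longest transcript. Positions, GC content and overlaps are from GENCODE 29, where 3 of the 10 IDs had the same version, and promoters from RefSeq.

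The genes and lists were chosen with earlier results of these data known. Named were the 10 genes, STAT3 and, from each list, the 3 smallest p-values among changed genes without overlap between groups. For 1 gene chosen in this way the result is not reported here. The edgeR step was tested on simulated data. Floors of 3 reads cover counting error only.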

Additional observations from a re-analysis of the deposited data

How the results depend on the processing

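GCLM passed under every alternative computed, and GCLC under none of them. TXNRD1 turned negative with the GC offset (-0.088), with the replicate block and GC offset (-0.089) and in DESeq2 (-0.0029), and ran from -0.054 to 0.062 when libraries were left out in turn. GSR ran from -0.27 to 0.0049 in the same way and was 0.096 and 0.098 in log2(FPKM + 1) and log2(FPKM + 0.1). GPX4 ran from -0.17 to 0.25. The cause was not tested.

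Of the 10 genes 1 was higher and 3 lower; leaving out libraries gave 1 to 2 higher and 0 to 6 lower. Without either STAT3 shRNA library edgeR called 0 lower, with 2 at an unadjusted p under 0.05, and limma on log2(FPKM + 1) and log2(FPKM + 0.1) called 0 and 0, with 3 at an unadjusted p under 0.05. The GC offset gave 2 higher, as did the replicate block and GC offset. With the GC offset in edgeR KEAP1 was no longer called lower (adjusted p = 0.0963). NFE2L2 (0.0336) and TXN (0.00472) then were, beside NQO1 (0.00501) and SRXN1 (0.00651). Over all genes, 2552 higher became 1630 in DESeq2, 1349 and 1315 in both FPKM fits, 1265 at a threshold of 0.01 and 1128 to 3367 without 1 library. The 2844 lower became 1186 and 1179 in both FPKM fits, 1632 at 0.01 and 1399 to 3924 without 1 library. In the pathway lists 30 higher became 18 in DESeq2, 14 and 14 in both FPKM fits, 12 at 0.01 and 12 to 36 without 1 library, and 52 lower became 24 and 24, 33 at 0.01 and 27 to 67.

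Replicate numbers are shared between groups, but same-numbered libraries did not deviate together (correlation -0.024 across genes). With 2 libraries a group this sets a single difference beside another, so whether same-numbered libraries share more than a number cannot be told. With the replicate block 2594 genes were higher and 2853 lower, and of the 10 genes 1 was higher and 3 lower, as without it. Where a library is left out, the lone sample of its group is assumed to vary like the other group. With 2 libraries a group, even the narrowest 95% interval among the 10 genes, that of NQO1, ran from -0.42 to -0.071 on the log2 scale, which limits what can be called among small differences.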
